A study of Mus musculus with 6 samples.

Results

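The 7 genes described here are the 4 mouse ID genes, Id1, Id2, Id3 and Id4, and the 3 E protein genes, Tcf3, Tcf12 and Tcf4. They were chosen by gene symbol from a table of raw read counts for 27179 genes in C2C12 cells, and all 7 had a row in it. C2C12 is an established, clonal mouse myoblast line. It divides in rich serum, and when serum is withdrawn its cells fuse into myotubes with many nuclei. For the 3 myotube libraries, cells stayed 3 days at 100% confluence, followed by 5 days in high-glucose medium with 2% horse serum and an insulin, transferrin, selenium and ethanolamine supplement. The 3 myoblast libraries came from sub-confluent cells in high-glucose medium with 10% fetal bovine serum. Both media held 4 mM glutamine, and no gene was edited in either group. Differentiation, serum, supplement and cell density thus change together. Libraries were made from poly(A) RNA with a strand-marking kit. Library totals were 7370169 to 8339589 counts in myotubes and 10076945 to 11723881 counts in myoblasts. Samples were taken in triplicate, without mention of independent cultures, so the p-values rest on a spread between samples that may be technical only.

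E proteins are broadly expressed basic helix-loop-helix (bHLH) transcription factors. They pair with tissue-restricted bHLH proteins such as MyoD and myogenin, and the pairs bind E-boxes, short DNA motifs in the regulatory regions of many muscle genes. ID proteins have the helix-loop-helix through which partners bind but lack the basic region that contacts DNA, so an E protein held by an ID protein cannot bind an E-box. Bone morphogenetic protein (BMP) signals, relayed by SMAD1, SMAD5 and SMAD9, are a known inducer of Id genes, and in muscle cells ID proteins are known for holding back differentiation.

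In the RefSeq annotation of GRCm38, Id1 (Entrez gene 15901) lies on chromosome 2 at 152736251 to 152737410, Id2 (15902) on chromosome 12 at 25093799 to 25096092, Id3 (15903) on chromosome 4 at 136143822 to 136145392 and Id4 (15904) on chromosome 13 at 48261116 to 48266028. Tcf3 (21423), which encodes the splice forms E12 and E47, lies on chromosome 10 at 80409541 to 80433976, and Tcf12 (21406), which encodes HEB, on chromosome 9 at 71844252 to 72111893 (the position of Tcf4 is given with its values). Counts are per gene, so splice forms such as E12 and E47 cannot be told apart in them. No 2 members share an exact stretch of 50 bases in their transcripts. The longest shared stretch, 47 bases, is between Tcf4 and Tcf12, and the longest between 2 ID genes is 19 bases, between Id2 and Id3. Of the 7 genes only Id4 overlaps an annotated antisense transcript, over 4.4% of its exon bases.

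The 250 bases before the RefSeq start (GRCm38.p6) are shown for Id2 and Id3, the ID genes that fell most, and for Myog, the muscle gene for myogenin and a known target of MyoD with E proteins. Each is written 5' to 3' on the strand of its gene. Capitals mark an E-box (CANNTG) or the palindrome GGCGCC, a GC-rich letter pattern known from BMP-responsive elements. Id2 is at chr12:25096093-25096342 (minus strand), Id3 at chr4:136143572-136143821 (plus) and Myog at chr1:134289754-134290003 (plus).
Id2: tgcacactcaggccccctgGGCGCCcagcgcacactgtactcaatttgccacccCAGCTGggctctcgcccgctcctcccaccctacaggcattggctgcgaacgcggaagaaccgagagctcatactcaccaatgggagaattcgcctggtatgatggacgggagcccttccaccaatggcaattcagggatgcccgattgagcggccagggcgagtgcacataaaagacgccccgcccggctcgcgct
Id3: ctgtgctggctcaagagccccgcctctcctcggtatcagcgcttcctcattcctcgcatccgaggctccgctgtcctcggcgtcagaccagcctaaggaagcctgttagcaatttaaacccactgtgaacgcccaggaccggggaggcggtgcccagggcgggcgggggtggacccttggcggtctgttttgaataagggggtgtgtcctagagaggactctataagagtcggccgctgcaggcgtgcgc
Myog: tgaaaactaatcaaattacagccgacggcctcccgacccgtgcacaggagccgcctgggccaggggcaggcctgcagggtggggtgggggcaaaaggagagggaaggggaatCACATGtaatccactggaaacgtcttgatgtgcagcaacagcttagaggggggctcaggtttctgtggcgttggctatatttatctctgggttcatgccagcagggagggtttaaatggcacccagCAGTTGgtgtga

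Id2 has GGCGCC, beginning 231 bases before the start, and the E-box CAGCTG, beginning 196 bases before it. Id3 has neither pattern in this window. Myog has CACATG 138 bases and CAGTTG 12 bases before the start. The patterns also occur in windows not shown. Id4, near the detection limit in both groups, has GGCGCC 148 bases before the start. Tcf12 has CAGCTG 240 bases before 1 of its starts and CAAGTG 149 bases before another. Ckm has CAGCTG 249 bases before the start, and Tcf3 has CACTTG 54 bases before it. Both strands were searched, in the same 250 bases of all 32851 RefSeq starts. CANNTG was present in 66.2% of them, CAGCTG, which is one form of CANNTG, in 13.0%, and GGCGCC in 9.59%. Also searched were CAGGTG, another form of CANNTG and present in 17.2%, the SMAD-binding palindrome GTCTAGAC (0.167%), the cyclic AMP element TGACGTCA (1.55%), TATAAA (12.4%) and CCAAT (33.8%). Of these 5, the windows shown hold only CCAAT, at 3 positions of Id2.

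All 3 ID genes with enough counts to test fell steeply in myotubes. Id3 fell to 2.06% of its myoblast level, Id2 to 8.27% and Id1 to 15.7%. By the quasi-likelihood test of edgeR, with p adjusted after Benjamini and Hochberg over 12800 genes, all 6 members with enough counts to test were called, 5 lower and 1 higher, where 79.5% of all tested genes were called, 39.2% lower and 40.2% higher. A call by itself therefore says little here. A stricter test, against a 2-fold change, called 4 members, all of them lower, where 21.6% of all tested genes were called and 9.2% were called lower. In bulk RNA, fewer cells that express a gene and less of its RNA per cell cannot be told apart.

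Id3 is an inhibitor of E proteins and of myogenic bHLH activity. It had 5.42, 4.47 and 6.06 CPM (counts made relative to library size after TMM scaling) in myotube libraries 1, 2 and 3, against 268, 257 and 256 CPM in myoblast libraries 1, 2 and 3. The groups were far apart, and in myoblasts Id3 was the most abundant ID gene in CPM while in myotubes it was the least abundant of the 3 tested. Its log2 change was −5.60 (SE 0.08, adjusted p = 1.37e-27, adjusted p = 6.21e-26 against 2-fold). Its 119 counts over the myotube libraries give a counting error of 0.13 on the log2 scale, so this SE is too small. Only 13 of the 12800 tested genes had a lower log2 change.

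Id2, which also binds the retinoblastoma protein, had 9.13, 7.85 and 8.46 CPM in the myotube libraries, against 106, 95.5 and 107 CPM in the myoblast libraries. The myotube values lay close together, and the groups did not overlap. The log2 change was −3.60 (SE 0.09, counting error 0.11, adjusted p = 2.15e-22, adjusted p = 1.07e-19 against 2-fold). Id1, a classical BMP target, had 9.99, 9.20 and 13.5 CPM in the myotube libraries, against 77.5, 65.0 and 67.9 CPM in the myoblast libraries. Myotube library 3 stood above the other two, and the groups did not overlap. The log2 change of Id1 was −2.67 (SE 0.10, adjusted p = 1.00e-17, adjusted p = 7.10e-14 against 2-fold), and −2.87 without myotube library 3. Groups did not overlap for 5 of the 6 tested members, nor for 80.5% of all tested genes.

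Id4, the fourth ID gene, was near the detection limit in both groups. It had 2, 0 and 0 counts in the myotube libraries and 2, 3 and 3 counts in the myoblast libraries. It did not pass the filter on low counts and was not tested. The ratio of myotubes to myoblasts was 0.381 with a 95% exact counting interval of 0.0395 to 1.91, so no difference was detectable at this depth.

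**Figure D1:**
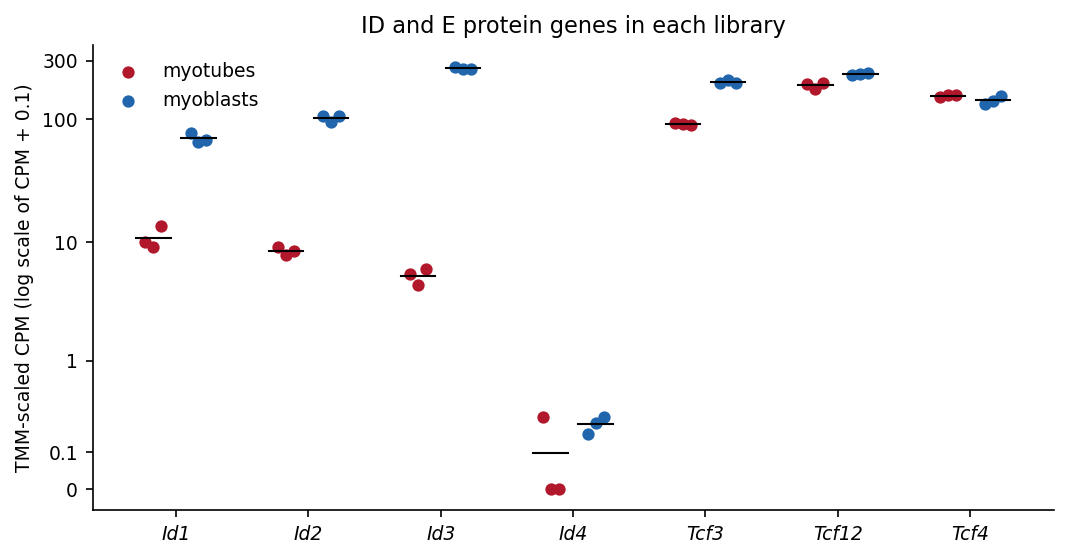
TMM-scaled CPM (vertical log axis of CPM + 0.1) of the 7 genes in each library, myotubes in red to the left and myoblasts in blue to the right of each gene, with the mean as a line. Id1, Id2 and Id3 sit at 4.47 to 13.5 CPM in myotubes and at 65.0 to 268 CPM in myoblasts, while the E protein genes stay between 90.7 and 236 CPM in all libraries.

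The 3 E protein genes moved less and not together. Tcf3 fell to 45.8% of its myoblast level, Tcf12 to 80.8%, and Tcf4 was 1.10-fold its myoblast level. Tcf3, the gene of E12 and E47, had 94.0, 91.2 and 90.7 CPM in the myotube libraries, against 198, 208 and 197 CPM in the myoblast libraries. The groups were clearly apart, and each spread little within itself. Its log2 change was −1.13 (SE 0.05, adjusted p = 1.49e-17). Against a 2-fold change its adjusted p was 0.00608, with a range of 1.83e-06 to 0.243 over the 13 alternatives, and it lost that call in the DESeq2 Wald test (adjusted p = 0.243).

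Tcf12, the gene of HEB, had 192, 178 and 196 CPM in the myotube libraries, against 229, 233 and 236 CPM in the myoblast libraries. The lowest myoblast value was above the highest myotube value. The log2 change was −0.31 (SE 0.04, adjusted p = 4.49e-07) and the change did not pass the test against 2-fold (adjusted p = 1). Scaling by library totals in place of TMM made it −0.45.

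Tcf4 (21413), the gene of E2-2, lies on chromosome 18 at 69343429 to 69687967. It had 151, 159 and 158 CPM in the myotube libraries, against 133, 140 and 154 CPM in the myoblast libraries. The groups overlapped, because myoblast library 3 was above myotube library 1. It was called higher with a log2 change of 0.13 (SE 0.05, adjusted p = 0.0187), and this call rests on a small difference. It was lost without myotube library 2 (log2 change 0.12, adjusted p = 0.0710), without myoblast library 1 (0.085, adjusted p = 0.169) and without myoblast library 2 (0.12, adjusted p = 0.0720). Scaling by library totals turned the sign (−0.014, adjusted p = 0.798), and when all genes with counts were kept the log2 change was 0.085 (adjusted p = 0.110). The adjusted p of Tcf4 ranged from 0.00206 to 0.798 over the 13 alternatives.

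**Figure D2:**
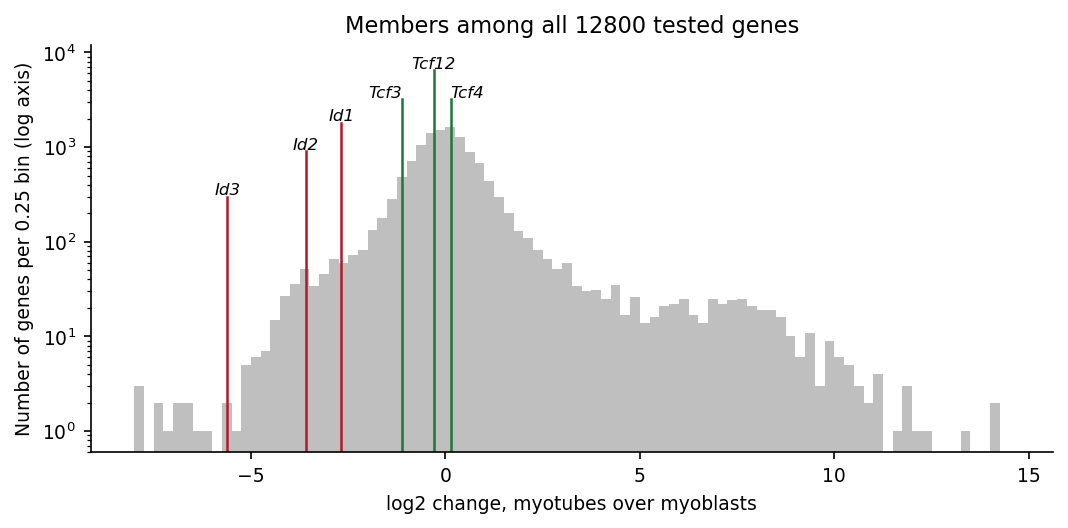
Number of genes (vertical log axis) by log2 change of myotubes over myoblasts for all 12800 tested genes in bins of 0.25, with the 6 tested members as vertical lines, ID genes in red and E protein genes in green. Id3 (−5.60), Id2 (−3.60) and Id1 (−2.67) lie in the lower tail, Tcf3 at −1.13, and Tcf12 (−0.31) and Tcf4 (0.13) near the centre; the height of these lines has no meaning.

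Set against the median log2 change of 0.016 over all tested genes, the median of the 3 tested ID genes was −3.60 and that of the 3 E protein genes −0.31. Of all tested genes, 0.102% had a lower log2 change than Id3, 1.15% than Id2, 2.56% than Id1, 10.5% than Tcf3, 34.7% than Tcf12 and 56.3% than Tcf4. Within a library the log2 count ratio of Id1 to Id3 was 0.88, 1.04 and 1.16 in myotubes, against −1.79, −1.98 and −1.91 in myoblasts, so the order of these 2 genes by counts was reversed in every library. The log2 count ratio of Tcf3 to Tcf4 was −0.68, −0.80 and −0.80 in myotubes, against 0.57, 0.57 and 0.35 in myoblasts, again with opposite signs. Ratios within a library are free of the choice of scaling.

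To compare levels between genes, CPM were divided by the length of all annotated exons of each gene in GENCODE M21, in kilobases (kb). In myotubes the order was Tcf3 (22.8 ± 0.446 CPM per kb), Tcf12 (12.1 ± 0.609), Id1 (9.40 ± 1.98), Tcf4 (5.69 ± 0.166), Id2 (3.48 ± 0.263), Id3 (2.97 ± 0.449) and Id4 (0.0247 ± 0.0428, all SD, n = 3). The ranges of Tcf12 and Id1 overlapped, as did those of Id2 and Id3. In myoblasts the order was Id3 (145 ± 3.70 CPM per kb), Id1 (60.5 ± 5.60), Tcf3 (49.7 ± 1.56), Id2 (42.1 ± 2.58), Tcf12 (15.01 ± 0.227), Tcf4 (5.20 ± 0.379) and Id4 (0.0612 ± 0.0135, all SD, n = 3). No neighbouring ranges overlapped there. The exon length counts all splice forms, which makes it long for Tcf4 (27382 bases) and Tcf12 (15529 bases) beside Tcf3 (4039 bases) and the ID genes (1160 to 3849 bases). With the longest coding transcript instead, Tcf12 (29.9 CPM per kb) overlapped Tcf3 (31.2) in myotubes. Tcf4 (18.2 CPM per kb) then stood above Id1 (9.40) in myotubes with no overlap, the opposite of their order by exon length. In myoblasts Id1 (60.5 CPM per kb) overlapped Tcf3 (68.1). By coding length Id2 (221 CPM per kb) stood above Id1 (139) in myoblasts. In myotubes Tcf12 (88.95 CPM per kb) and Tcf4 (75.0) then stood above Tcf3 (47.0). Much of the order thus depends on the length chosen, though Id3 was highest in myoblasts under each length.

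Summed over each family, ID transcripts were 15.9 ± 2.46 CPM per kb of exon in myotubes and 248 ± 10.8 CPM per kb in myoblasts, and E protein transcripts 40.6 ± 0.679 CPM per kb in myotubes and 69.9 ± 1.54 CPM per kb in myoblasts (SD, n = 3). The ratio of ID to E protein transcripts was 0.376, 0.343 and 0.453 in the myotube libraries, against 3.78, 3.33 and 3.53 in the myoblast libraries. ID transcripts thus were fewer than E protein transcripts in every myotube library and more numerous in every myoblast library, and the mean ratio was 9.08-fold lower in myotubes. This holds per kilobase of exon, of longest coding transcript (ratio 0.226 in myotubes and 2.60 in myoblasts) and of coding sequence (0.260 in myotubes and 3.88 in myoblasts), and not without division by length, where the ratio was under 1 in both groups (0.0568 in myotubes and 0.753 in myoblasts). These are transcript ratios and no measure of protein, and since they are a score over the members they were not tested.

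The make-up of each family also differed. Per kb of exon, Id1 gave 58.9 ± 3.69% of ID transcripts in myotubes and 24.4 ± 1.19% in myoblasts, Id2 22.2 ± 2.99% in myotubes and 17.0 ± 0.776% in myoblasts, and Id3 18.7 ± 0.753% in myotubes and 58.6 ± 1.28% in myoblasts (SD, n = 3). Id3 was thus the leading ID gene in myoblasts and Id1 in myotubes. The lead of Id1 was smaller by coding length, with 39.15 ± 3.76% in myotubes against 33.45 ± 3.54% for Id2. In myotube library 1 the 2 genes were then nearly equal (35.88% and 35.55%). Among E protein genes Tcf3 gave 56.1 ± 0.952% in myotubes and 71.1 ± 0.975% in myoblasts, Tcf12 29.9 ± 1.08% in myotubes and 21.5 ± 0.467% in myoblasts, and Tcf4 14.0 ± 0.608% in myotubes and 7.43 ± 0.559% in myoblasts. The share of Tcf3 was smaller and that of Tcf4 larger in myotubes under every length. By coding length Tcf12 led in both groups, with 42.2% in myotubes and 39.1% in myoblasts.

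**Figure D3:**
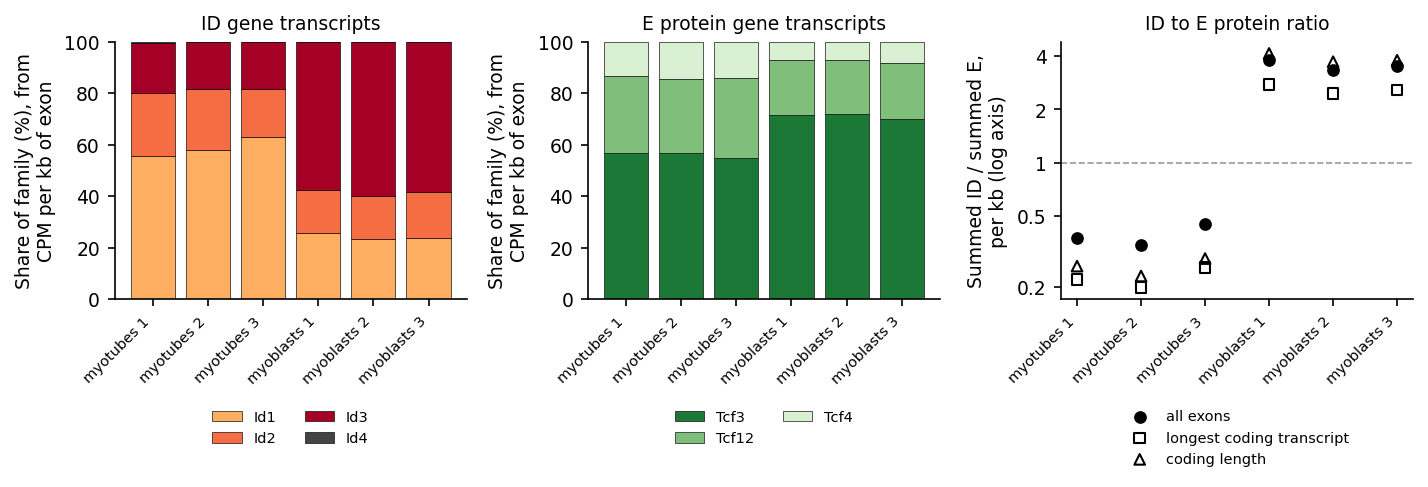
Share of each gene (%, from CPM per kb of exon) in ID transcripts (left) and in E protein transcripts (middle) of each library, and the ratio of summed ID to summed E protein transcripts (right, log axis) by 3 measures of gene length, with a dashed line at 1. Id3 gives 58.6% of ID transcripts in myoblasts and 18.7% in myotubes on average, and by these 3 lengths all ratios lie under 1 in myotubes and over 1 in myoblasts.

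The genes whose 6 values were most like those of each member were found by the distance between log2(CPM + 1) values centred on each gene's mean, among 9544 other genes whose mean reached 10 CPM. The nearest to Id3 were Akap12 at a distance of 0.615 and Prl2c3 at 0.885, and Prl2c3 belongs to a family of near-identical genes, which makes its level uncertain. Id2 lay next to Hmmr (0.124) and Cip2a (0.125), and Id1 next to Cit (0.184) and Trim59 (0.238). Hmmr had 11.1 ± 0.672 CPM in myotubes and 128 ± 8.05 CPM in myoblasts, and Cit 9.58 ± 1.73 CPM in myotubes and 63.5 ± 1.11 CPM in myoblasts (SD, n = 3). Tcf3 lay next to Samd14 (0.0514) and Tent4a (0.0655), Tcf12 next to Pkd2 (0.0391) and Kbtbd2 (0.0499), and Tcf4 next to Npr2 (0.0334) and Efl1 (0.0508). With 2 groups of 3 libraries, such likeness mostly reflects the size of the difference between groups.

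The myogenic bHLH factors, the partners that ID proteins keep from E proteins, did not move together. Of the 4 genes 2 rose steeply and 2 were called lower with only a small change. Myog, the gene of myogenin, rose to 1530 ± 106 CPM in myotubes, against 30.8 ± 4.73 CPM in myoblasts (log2 change 5.63, SE 0.09, adjusted p = 3.51e-15). Myf6, the gene of MRF4, had 30.3 ± 2.65 CPM in myotubes and 0.594 ± 0.141 CPM, from 20 counts, in myoblasts (log2 change 5.65, adjusted p = 1.14e-19). Myod1 had 169 ± 6.12 CPM in myotubes and 188 ± 4.59 CPM in myoblasts (log2 change −0.16, SE 0.04, adjusted p = 0.00176). Myf5 had 61.5 ± 3.75 CPM in myotubes and 67.4 ± 2.60 CPM in myoblasts (log2 change −0.13, SE 0.06, adjusted p = 0.0463), with overlapping groups. The Myf5 call was lost without myotube library 1 (adjusted p = 0.0519) or 3 (0.230), without myoblast library 1 (0.125) or 3 (0.106) and under 2 other alternatives. Summed over the 4 genes, these partners had 1690 to 1900 CPM in myotubes and 286 to 288 CPM in myoblasts.

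Of 20 muscle genes known for regulatory E-boxes 19 rose and 1 fell, with a median log2 change of 7.36. Muscle creatine kinase (Ckm), a textbook target of MyoD with E proteins, had 696 ± 28.3 CPM in myotubes and 1.10 ± 0.514 CPM in myoblasts (log2 change 9.27, adjusted p = 2.21e-30), with 15.5% of its exon bases under an antisense transcript. Myoglobin (Mb) had a log2 change of 11.95 (adjusted p = 3.28e-07) and the muscle caveolin Cav3 one of 9.59 (adjusted p = 1.01e-24), from 18 and 4 counts over the myoblast libraries, and 31.9% of the exon bases of Mb are under antisense transcripts. Chrne, the adult acetylcholine receptor subunit, had 0 counts in myoblasts and was at least 77.3-fold higher in myotubes, against 3 counts over the myoblast group. The cell cycle inhibitor Cdkn1a, whose protein p21 accompanies cell cycle exit, had 1982 ± 25.3 CPM in myotubes and 209 ± 3.36 CPM in myoblasts (log2 change 3.25, SE 0.04, adjusted p = 8.11e-29). The M-cadherin gene Cdh15 was the 1 that fell, by 0.085 (adjusted p = 0.0446), and lost its call without myotube library 1 (adjusted p = 0.0568) or 2 (0.135), without myoblast library 1 (0.081) or 3 (0.166) and under 2 other alternatives.

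Other bHLH partners of E proteins were scarce in these cells. Of 22 listed genes 14 had 0 counts in all libraries and 4 had enough counts to test, of which 3 fell and none was called higher. Tcf23, named after its values were seen, missed the filter with 38 counts in myotubes and 25 in myoblasts. It was called higher with a minimum of 1 CPM in 3 libraries (adjusted p = 0.00547), with all genes kept (adjusted p = 0.00794) and in each fit that left out 1 library except that without myotube library 1 (log2 change 0.89, adjusted p = 0.0687). Twist2, which can hold MyoD and E proteins inactive, had a log2 change of −2.50 (SE 0.16, adjusted p = 1.22e-13), Atoh8 one of −2.38 (SE 0.14, adjusted p = 3.99e-14) and Msc, the gene of the repressor musculin, one of −1.47 (SE 0.16, adjusted p = 1.04e-08). Antisense transcripts cover 46.5% of the exon bases of Twist2 and 21.2% of those of Msc. Scx, the gene of scleraxis, had 57.4 ± 0.503 CPM in myotubes and 59.1 ± 4.56 CPM in myoblasts and did not pass (log2 change −0.040, adjusted p = 0.565), but was called lower with scaling by library totals, which gave 4 genes lower.

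In a list of repressors, most of which bind E-boxes or related sites, genes were called both ways, 7 of 12 tested genes higher and 5 lower, or 6 and 5 with scaling by library totals. The Notch target gene Heyl had a log2 change of 1.94 (SE 0.05, adjusted p = 5.83e-21), the zinc finger gene Zeb1 one of 1.78 (SE 0.04, adjusted p = 6.50e-23) and Bhlhe40, a bHLH repressor of the clock, one of 1.62 (SE 0.05, adjusted p = 6.74e-20). Mxd3, a partner of MAX, fell by 4.54 (SE 0.15, adjusted p = 3.16e-19). It had only 31 counts over the myotube libraries, so its counting error exceeds this SE. Tcf7l2, counted in this list, is a Wnt effector of the TCF/LEF family that binds another motif and is no E protein in spite of its name. It fell by 1.45 (SE 0.10, adjusted p = 2.05e-12). Among cofactors that E proteins recruit, 8 of 10 tested genes fell and 2 rose, with a median log2 change of −0.66. Against a 2-fold change only 1 of the 10, Hdac1, was called lower and 1 was called higher. Hdac1 had a log2 change of −1.67 (adjusted p = 2.77e-11), the co-repressor Tle1 one of −1.15 (adjusted p = 7.72e-12) and the chromatin remodeller Smarca4 one of −0.89 (adjusted p = 2.54e-15). For Hdac1, 58.7% of the 50-base windows of its transcript have an exact copy in other genes, so its level is uncertain. Cbfa2t3, a co-repressor of the ETO family that binds E proteins, rose by 6.32 to 26.9 ± 3.85 CPM in myotubes, against 0.327 ± 0.238 CPM, from 11 counts, in myoblasts (adjusted p = 3.72e-18), and the acetyltransferase Kat2b rose by 0.35 (adjusted p = 3.02e-05).

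**Figure D4:**
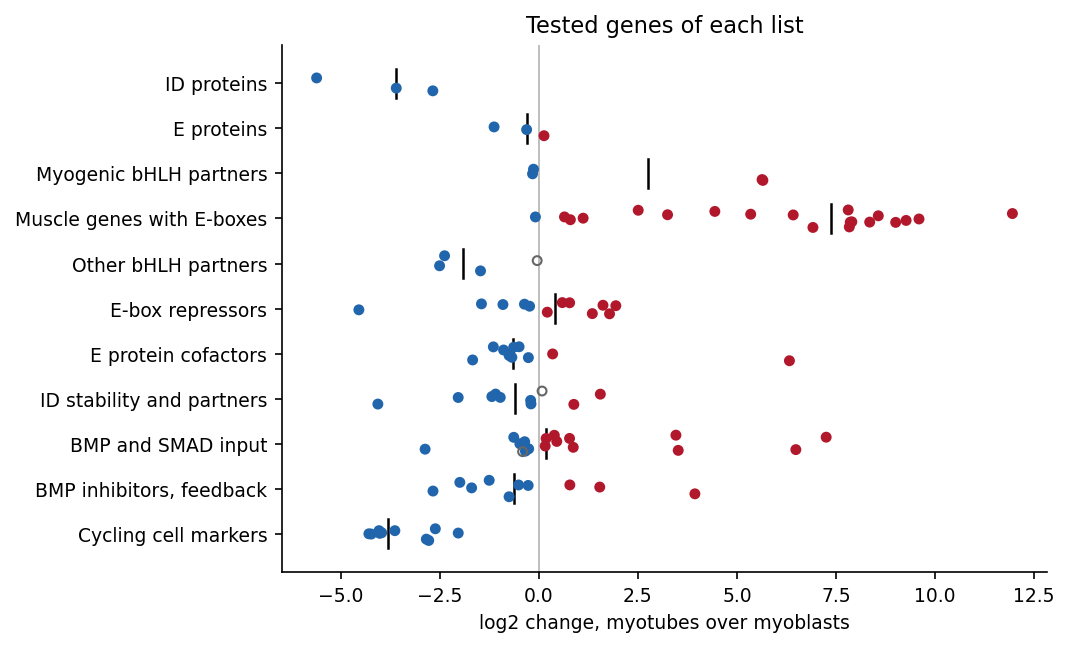
Log2 change of myotubes over myoblasts (horizontal axis) of each tested gene of 11 lists (rows), filled red where called higher, filled blue where called lower and open where not called, with the list median as a black line. The 3 ID genes lie at −5.60 to −2.67 and the 10 cycling cell markers have a median of −3.80, while the muscle genes have a median of 7.36.

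Genes of the BMP pathway, which can induce Id genes, were called both ways. Of 17 tested genes for ligands, receptors, co-receptors and SMADs 10 rose and 6 fell, with a median log2 change of 0.18, or 8 and 6 with a median of 0.039 with scaling by library totals. The SMADs that carry the signal were called both ways. Smad1 had 46.8 ± 3.15 CPM in myotubes and 41.9 ± 0.947 CPM in myoblasts (log2 change 0.16, adjusted p = 0.0301). Its call was lost without myotube library 3 (0.10, adjusted p = 0.206), without myoblast library 1 (adjusted p = 0.0643) or 2 (0.0936), with library totals (0.015, adjusted p = 0.838), in the DESeq2 Wald test (adjusted p = 0.0890) and with all genes kept (adjusted p = 0.151). Smad5 had 143 ± 2.45 CPM in myotubes and 181 ± 2.21 CPM in myoblasts (log2 change −0.34, adjusted p = 6.58e-08), and both genes were named after their values were seen. Smad9 fell by 2.87 (SE 0.26, adjusted p = 1.97e-10) to 1.06 ± 0.413 CPM, from 24 counts, in myotubes, against 7.93 ± 1.34 CPM in myoblasts. The largest increases were those of the BMP co-receptor hemojuvelin (Hjv, log2 change 7.25, adjusted p = 7.22e-29), of the ligand Gdf5 (6.49, from 5 counts over the myoblast libraries, with 40.3% of its exon bases under an antisense transcript, adjusted p = 5.42e-17) and of the co-receptor Rgma (3.52, adjusted p = 9.01e-24). The ligand Bmp4 fell by 0.63 (SE 0.19, adjusted p = 0.00348).

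Among BMP inhibitors and feedback genes 7 of 10 tested genes fell and 3 rose, with a median of −0.63. Against a 2-fold change 4 were called lower and 2 higher. The genes of the inhibitory SMADs, known BMP targets, both fell. The part of BMP signals in the ID result was not tested. Smad6 had 2.34 ± 0.347 CPM in myotubes and 9.31 ± 0.288 CPM in myoblasts (log2 change −1.99, SE 0.18, adjusted p = 3.42e-10), and Smad7 9.61 ± 0.577 CPM in myotubes and 22.8 ± 1.27 CPM in myoblasts (−1.25, SE 0.11, adjusted p = 1.04e-10). Crim1 fell by 2.67 (adjusted p = 3.44e-15) and the secreted antagonist Grem1 by 1.69 (adjusted p = 1.33e-19), whereas the antagonist chordin (Chrd) rose by 3.94 (adjusted p = 2.37e-22) and Tob1, which restrains SMAD activity, by 1.54 (adjusted p = 9.40e-18).

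Of 10 tested genes for the stability and the other partners of ID proteins, 7 were called lower and 2 higher, with a median log2 change of −0.59. Of all tested genes 39.2% were called lower and 40.2% higher. Against a 2-fold change 3 of the 10 were called lower and 1 higher, where 9.2% of all tested genes were called lower and 12.4% higher. Usp1, the deubiquitinase that stabilises ID proteins, had 25.6 ± 2.25 CPM in myotubes and 105 ± 4.67 CPM in myoblasts (log2 change −2.03, SE 0.07, adjusted p = 2.59e-19), though 22.8% of its transcript windows have a copy elsewhere. The genes of the 2 activators of the anaphase-promoting complex, which marks ID proteins for degradation, also fell, with a log2 change of −4.06 for Cdc20 (SE 0.09, adjusted p = 2.36e-23) and of −1.18 for Fzr1 (SE 0.06, adjusted p = 1.02e-15). Rb1, the gene of the retinoblastoma protein that ID2 binds, had 181 ± 11.1 CPM in myotubes and 61.8 ± 2.31 CPM in myoblasts (log2 change 1.55, SE 0.05, adjusted p = 3.10e-19), and Cops5 rose by 0.88 (adjusted p = 1.31e-15). Antisense transcripts cover 14.9% of the exon bases of Rb1.

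Cycling cell markers moved with the ID genes. All 10 fell, with a median log2 change of −3.80, and their summed level was 253 to 268 CPM in myotubes and 2640 to 2650 CPM in myoblasts. Plk1 fell by 4.29 (adjusted p = 4.36e-24), Mcm5 fell by 4.23 (3.45e-24) and Mki67 fell by 4.03 (2.39e-28). The part of cycling cells in the ID result was not tested. Of 14 markers of adipocytes, endothelium, blood and neural cells 5 had enough counts to test. The summed level of the 14 was 52.7 to 62.9 CPM in myotubes and 251 to 270 CPM in myoblasts, most of it from the tubulin gene Tubb3, which fell by 2.78 (adjusted p = 1.03e-22). Itgam rose by 5.00 (adjusted p = 1.03e-08) and Pparg fell by 0.47 (adjusted p = 0.000387). Itgam had 2 counts over the myoblast libraries, a ratio of 38.9 (95% exact counting interval 10.2 to 330.0), and shares 68.7% of its exon bases with another gene. Of the other listed markers, Adipoq (adipocytes) and Snap25 (neurons) had 0 counts in every library, and Ptprc (blood cells) had 1 count in each group. Cdh5 (endothelium) had 3 counts in myotubes and 1 in myoblasts. Some markers of the same cell types had more counts. Tek (endothelium) had 22 in myotubes and 14 in myoblasts. Cd68 (blood cells) had 38 in myotubes and 64 in myoblasts and did not pass (log2 change −0.14, adjusted p = 0.673).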

How the data were processed

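Poly(A) RNA libraries of 3 myotube and 3 myoblast samples were analysed. The table the authors deposited holds raw read counts, with 1 row for each gene (Entrez ID and symbol) and 1 column for each library. Per the submitters' processing notes, the tools were fastp, STAR and featureCounts and the genome mm10. The sources used here do not give the versions or the strand setting. Of 27179 genes, 8724 had 0 counts throughout and 1049 had no symbol. The latter held 0.212 to 0.257% of counts and were kept under their Entrez ID. Replicates differed by more than sampling noise, with chi-square per degree of freedom of 1.35 to 3.22.

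Genes were filtered by filterByExpr (minimum count 10, minimum total 15), which left 12800, scaled by TMM and tested with the robust quasi-likelihood F test of edgeR 4.0.16 in R 4.3.3, without a block. The test against 2-fold used glmTreat. P-values were adjusted after Benjamini and Hochberg and called under 0.05. The standard error (SE) was taken from the log2 change and its F statistic, and the counting error is the Poisson error of the summed counts. With few counts in a group the SE can lie below the counting error, and the SE and p-value are then too small. Among such genes are Id3, Id2, Mxd3, Smad9, Smad6, Smad7, Twist2, Atoh8 and Cdc20. CPM were computed after TMM scaling. Intervals, bounds and floors reflect counting error alone. Alternatives were DESeq2 1.42.0 size factors, library totals, the DESeq2 Wald test, limma-voom (limma 3.58.1), no filter, a minimum of 1 CPM in 3 libraries, the replicate block and leaving out each library.

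Gene lengths and overlaps come from GENCODE M21, promoters and positions from RefSeq GRCm38.p6, of which Id2, Id3, Id4, Tcf3 and Tcf12 had a promoter entry. Copies were searched as exact 50-base windows. The members and lists were chosen with earlier results of these data known. All members are named. From each list the text names the called genes that changed most and whose mean reached 1 CPM, 3 in the commoner direction and 2 in the rarer one, and also the myogenic factors, Ckm, Cdkn1a, Usp1, Smad6, Smad7 and Rb1. A gene that this rule names is not reported here. For each member whose mean reached 10 CPM it names the 2 nearest genes with no provisional symbol. Chrne, Scx, Tcf23, Smad1, Smad5, Alpl, Ibsp, Dlx5, Dmp1, Sp7, Bglap, Adipoq, Snap25, Ptprc, Cdh5, Cd68, Tek and Pax7 were named after their values were seen.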

Additional observations from a re-analysis of the deposited data

How the results depend on the processing

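Under all 13 alternatives Id1, Id2, Id3, Tcf3 and Tcf12 kept their direction and their call. The log2 changes ranged from −2.87 to −2.56 for Id1, −3.74 to −3.54 for Id2, −5.75 to −5.49 for Id3, −1.27 to −1.10 for Tcf3 and −0.45 to −0.27 for Tcf12. Tcf4 turned to −0.014 with library totals and lost its call with no filter (0.085). Leaving out each library gave it 0.085 to 0.19. Library totals moved the median of all genes by −0.15 and gave 4269 genes higher and 5935 lower, against 5146 and 5024 with TMM. Of all tested genes 9496 to 11105 were called under the alternatives. The ratio of ID to E protein transcripts was, for the longest coding transcript, coding length and no division by length, 0.226, 0.260 and 0.0568 in myotubes and 2.60, 3.88 and 0.753 in myoblasts. Length sets these values by construction. Among the other named genes Npr2 and Efl1, neighbours of Tcf4 that were not called, turned to −0.029 and −0.038 with library totals.

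Libraries of the 2 groups with the same replicate number share only that number. Correlations of same-numbered libraries' deviations over 9821 genes were 0.008, 0.043 and 0.027, against −0.031 to 0.002 for the others. Each library correlated best with its own number, but values this small do not settle whether libraries were paired. With the replicate block 10161 genes were called, against 10170 without it, and all 6 tested members were still called. At this depth Id4, with 10 counts in all, cannot be compared between groups, and with no filter its log2 change was −1.31 (adjusted p = 0.336).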

Other observations

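Markers of undifferentiated and reserve cells, which stay mononucleated in differentiating C2C12 cultures, were called both ways. The part of such cells in the ID result was not tested. Of 9 tested genes 4 rose and 3 fell, with a median log2 change of 0.10, which became −0.042 with scaling by library totals. Without myotube library 3 all 9 were called, 6 higher and 3 lower. Spry1, an antagonist of growth factor signals, had a log2 change of 2.91 (adjusted p = 1.80e-14), with 24.4% of its exon bases under an antisense transcript, Sox8 one of 1.24 (adjusted p = 6.32e-07) and the surface protein gene Cd34 one of 1.15 (adjusted p = 6.72e-14). The chemokine receptor gene Cxcr4 fell by 1.71 (adjusted p = 9.35e-17) and Notch1 by 0.24 (adjusted p = 0.000327). Pax7, the satellite cell factor, was named after its values were seen. It had 63.8 ± 6.08 CPM in myotubes and 59.2 ± 1.64 CPM in myoblasts (SD, n = 3). Pax7 did not pass with all libraries (adjusted p = 0.140), but was called without myotube library 3.

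BMP is known to divert C2C12 cells to the osteoblast lineage while it induces Id1. Of 8 osteoblast-lineage markers 3 had enough counts to test, of which 2 fell. Runx2, the lineage factor, had 39.9 ± 2.08 CPM in myotubes and 81.6 ± 2.34 CPM in myoblasts (log2 change −1.03, SE 0.06, adjusted p = 4.12e-14), and osteopontin (Spp1) 898 ± 15.5 CPM in myotubes and 3815 ± 105 CPM in myoblasts (−2.09, SE 0.04, adjusted p = 5.70e-25). Spp1 shares 18.8% of its exon bases with another gene on the same strand. Dmp1, the other tested gene, had 10.9 ± 0.74 CPM in myotubes and 9.57 ± 0.43 CPM in myoblasts. It did not pass (log2 change 0.19, adjusted p = 0.1675). Among the genes not tested, Ibsp and Dlx5 had 0 counts in every library, and Alpl had 0 counts in myotubes and 2 in myoblasts. Sp7 had 12 counts in myotubes and 20 in myoblasts, and Bglap had 2 in myotubes and 0 in myoblasts.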
